A study of Mus musculus with 6 samples.

Results

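The BCL2 family genes described here are 10 genes of mitochondrial apoptosis: the survival genes Bcl2, Bcl2l1 and Mcl1, the effectors Bax and Bak1, and the BH3-only genes Bcl2l11, Bbc3, Pmaip1, Bid and Bad. They were taken by name from the expression table. All 10 were among its 14744 genes, and all 10 were among the 11296 genes tested, those with a normalized read count of at least 10 in at least 3 libraries. RNA was sequenced from Tfh cells, which give help to B cells in germinal centers, sorted from mesenteric lymph nodes (MLNs) as CD4+B220-CD44+PD-1+CXCR5+ cells, with 10000 to 30000 cells a sample. Each genotype, WT and Bach2 fl/fl Cd4-cre, had 3 libraries. Both kinds of mice were on the C57BL/6 background, given as C57BL/6J in the study's methods. As far as the study states it, they were 2 to 3 months old. The Cd4-cre transgene is active from the thymus on, so deletion is not limited to Tfh cells. Elsewhere in the study the WT mice are Cd4-Cre littermates, and the labels do not say whether the WT mice of these libraries carried Cre. Nothing in the labels says that the libraries of a group came from separate animals, so p-values measure the spread between these libraries.

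The BCL2 family decides whether the outer membrane of mitochondria is breached. Bax and Bak form the pores that release cytochrome c, the survival proteins hold them and the BH3-only proteins in check, and the BH3-only proteins carry death signals to both. In T cells, Bcl2 and Mcl1 sustain survival downstream of cytokines, and Bim, the product of Bcl2l11, is a chief mediator of the death of activated and autoreactive T cells.

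Between 5045131 and 10987752 reads were recovered in each of 5 libraries from the steps of their values. WT replicate 1 stood apart. It detected 11648 genes, where the other libraries detected 13111 to 13567, and its values correlated across genes with those of WT replicates 2 and 3 at Pearson's r of 0.851 and 0.862, while replicates 2 and 3 reached 0.949. Genes are not independent replicates in these correlations.

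Bach2, the deleted gene, was examined as a check of the labels. It was at 233, 222 and 105 normalized read counts in WT replicates 1, 2 and 3, and at 399, 763 and 591 in replicates 1, 2 and 3 of the other group. All 3 libraries labelled Bach2-deficient thus held more Bach2 reads than any WT library. The log2 difference was 1.68 (standard error 0.37, limma adjusted p = 0.141). It passed the study's thresholds, given below, with library weights in limma at 2.36 (adjusted p = 0.00019) and with DESeq2 on 5 libraries at 1.81 (adjusted p = 0.0012), but not with edgeR on the same 5 libraries, at 1.83 (adjusted p = 0.148). This direction goes against the label, so these are named only as the libraries labelled Bach2-deficient, and every direction below rests on the labels. Counts are per gene and include exons outside the deleted part. In the study's flow cytometry, follicular T cells of Bach2-deficient mice were shifted toward cells without Foxp3. Foxp3 ran the same way here by the labels, at 222, 315 and 344 normalized read counts in WT and at 47.3, 140 and 91.0 in the other group. Whether labels were exchanged was not tested.

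Tfh markers were present in all 6 libraries, with none of 11 at 0. Their summed level was 33117, 35912 and 47181 normalized read counts in the WT libraries and 32621, 25905 and 33974 in those labelled Bach2-deficient. Per kilobase of transcript, Sh2d1a, the gene of the adaptor SAP, had the highest mean in both groups. At an unadjusted p under 0.05, 4 of the 11 were higher in the libraries labelled Bach2-deficient, Cd4, Cd44, Bcl6 and Tox2, and 2 were lower, Cd3e and Icos, against 10.1% and 10.2% of all tested genes in these directions. Genes of B cells and of other antigen-presenting cells were also present. All 6 B cell genes tested had log2 differences below 0, with a median of -1.05, and 3 had an unadjusted p under 0.05: Ms4a1, H2-Aa and Cd74, the invariant chain of MHC class II, which is not specific to B cells. The myeloid list summed to 5923, 14055 and 7992 in WT and to 6326, 12010 and 4913 in the other group. Itgam was at 0 in WT replicate 1, and Cst3 had the highest mean per kilobase of transcript in both groups. Of the 6 tested genes of the myeloid list, 1 had an unadjusted p under 0.05, Cd68, which was lower. The list had no common direction, with 3 log2 differences above 0, 3 below and a median of 0.18. Those above 0 were Csf1r at 1.62, Adgre1 at 0.73 and Fcer1g at 0.46. The part of these cells in the values of the BCL2 family was not tested.

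In limma on all 6 libraries, none of the 10 BCL2 family genes passed the study's thresholds, an adjusted p under 0.01 and a difference of more than 2-fold. The background was the same, with 0% of the 11296 genes called higher and 0% called lower. The study itself, with DESeq2 on read counts, reported genes past these thresholds in both directions, so the 0% belongs to this fit. At an unadjusted p under 0.05, 3 of the 10 were higher in the libraries labelled Bach2-deficient, Mcl1, Bak1 and Bcl2l11, where 10.1% of all tested genes were. None of the 10 was lower, where 10.2% of all tested genes were. Groups did not overlap for 3 of the 10, Mcl1, Bak1 and Bbc3, all higher, against 14.6% of all tested genes that were higher without overlap and 12.2% that were lower without overlap. These counts lie above the background in the higher direction and below it in the lower, but with 10 genes a single gene moves a count by as much as a whole background share, and a share near the background is not a result about these genes. The median log2 difference was 0.34 over the 10 genes and 0.08 over all genes tested, with 7 of the 10 above 0 and 3 below.

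Other fits moved the counts. DESeq2 on the reads of 5 libraries, without WT replicate 1, called 0 of the 10, with 0.292% of genes called higher and 0.505% lower, and edgeR on the same 5 libraries called 0 of the 10, with 0% of genes called in either direction. Each of these gave 2 of the 10 at an unadjusted p under 0.05, a level that 2158 of all tested genes reached in DESeq2 and 2070 in edgeR. Limma with a weight for each library called 2 of the 10, Bak1 and Bcl2l11, both higher, where it called 4.97% of genes higher and 5.02% lower, and it gave WT replicate 1 a weight of 0.206 and replicate 2 labelled Bach2-deficient a weight of 5.54. Leaving out replicate 1 or replicate 2 labelled Bach2-deficient left 1 of the 10 at an unadjusted p under 0.05, with 1074 and 1204 genes of all tested at that level, against 2301 in all 6 libraries.

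**Figure D1:**
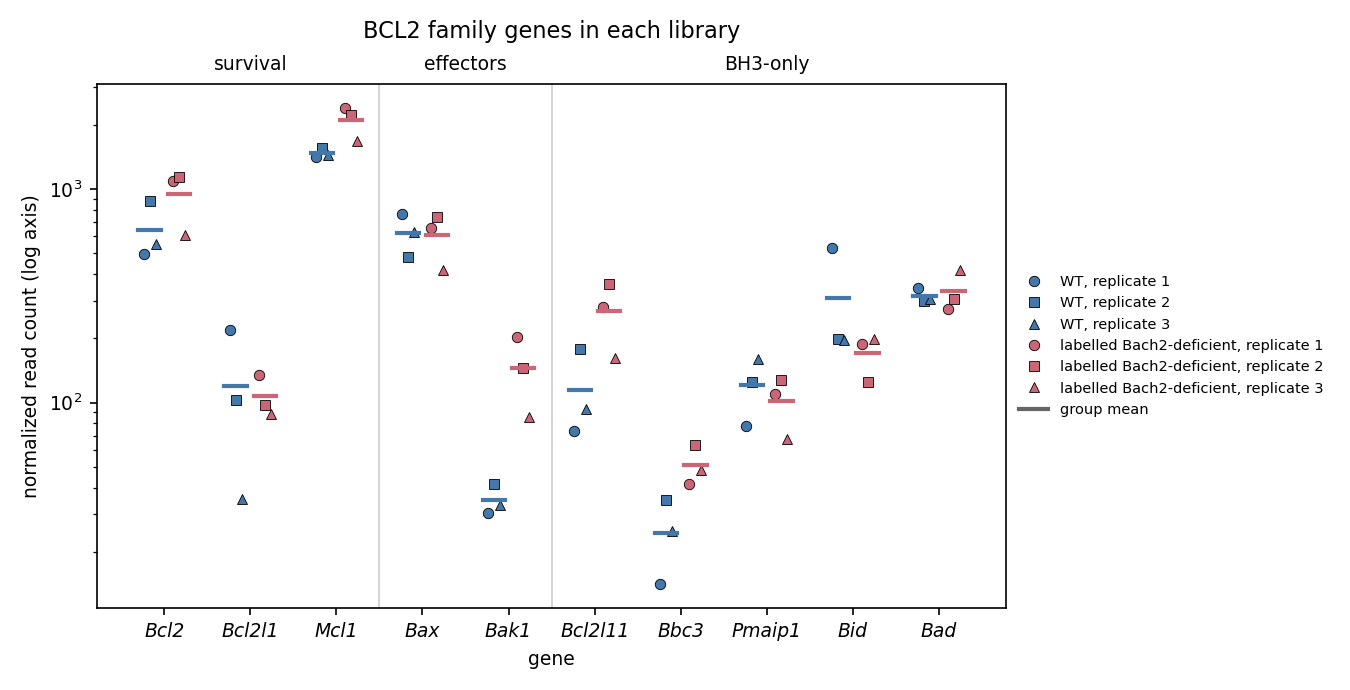
Normalized read count of each BCL2 family gene (log axis) in the 3 WT libraries (blue) and the 3 libraries labelled Bach2-deficient (red), with symbols for replicates and a line at each group mean. The groups are apart for Mcl1, Bak1 and Bbc3, and overlap for the other genes.

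Among the survival genes, Mcl1 encodes a short-lived protein that lymphocytes need to stay alive. It lies at chr3:95658788-95663176 of GRCm38 and was at 1410, 1560 and 1435 normalized read counts in WT replicates 1, 2 and 3, and at 2396, 2221 and 1682 in replicates 1, 2 and 3 labelled Bach2-deficient. The WT values lay close together, and each of the 3 other libraries lay above them, with replicate 3 the nearest. Means were 1468 ± 80.5 (SD, n = 3) and 2100 ± 372 (SD, n = 3), a ratio of 1.43. The log2 difference of 0.50 (standard error 0.20, 95% confidence interval 0.057 to 0.95) had a limma adjusted p of 0.205 and missed the threshold. Its unadjusted limma p of 0.031 rose above 0.05 in several fits. On 5 libraries, the unadjusted p was 0.056 with edgeR and 0.068 with DESeq2. Limma with no variance trend gave 0.081 for Mcl1 and 0.029 for Bbc3. Dropping any single WT library, or either replicate 1 or 2 of the other group, also put Mcl1 above 0.05 in limma. Every other fit kept it under 0.05, down to 0.00057 with library weights. In bulk RNA of sorted cells, more cells with a transcript and more of it per cell cannot be told apart.

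Bcl2, the founding survival gene of the family, was at 498, 881 and 553 normalized read counts in WT and at 1086, 1134 and 607 in the libraries labelled Bach2-deficient. Replicates 1 and 2 labelled Bach2-deficient were the highest of the 6 libraries, but replicate 3 fell inside the WT range and below WT replicate 2. From 644 ± 207 (SD, n = 3) to 942 ± 292 (SD, n = 3), the log2 difference of 0.54 (standard error 0.31, limma adjusted p = 0.334) did not exceed the spread between replicates. It was 0.83 without replicate 3 labelled Bach2-deficient and 0.19 after removal of a smooth trend with transcript length and GC content. An antisense transcript, D630008O14Rik, overlaps Bcl2 and was at 1.01, 29.2 and 20.8 normalized read counts in WT and at 73.9, 83.8 and 48.1 in the other group. Whether counting used the strand is not given in the sources used here, so reads of the pair cannot be told apart.

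Bcl2l1, the gene of BCL-XL, showed the widest WT spread relative to the mean among the survival genes. Its WT libraries held 219, 103 and 35.4 normalized read counts, and the libraries labelled Bach2-deficient 134, 97.8 and 88.0. The latter all lay within the WT range. The means, 119 in WT and 107 in the other group, ran against the log2 difference, which was above 0. The log2 difference of 0.17 (standard error 0.60, limma adjusted p = 0.890) was 0.78 without WT replicate 1 and -0.51 without WT replicate 3, so its direction rests on single libraries.

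Of the effectors, Bak1 had the smallest p of the family. The gene lies at chr17:27019810-27029009 on the minus strand, and its values were 30.3, 41.5 and 33.3 normalized read counts in WT and 202, 145 and 85.9 in the libraries labelled Bach2-deficient. Every library labelled Bach2-deficient was above every WT library, and the lowest of them, replicate 3, was at more than the highest WT value by a wide gap. The means were 35.0 ± 5.81 (SD, n = 3) and 144 ± 58.3 (SD, n = 3), a ratio of 4.12. On the log2 scale the difference was 1.94 (standard error 0.48, 95% confidence interval 0.88 to 3.00), with a limma adjusted p of 0.141 and rank 172 of all tested genes by p. The 2-sided exact permutation p was 0.1, the smallest that 3 against 3 libraries can give.

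WT replicates 2 and 3 held 37 and 32 reads on Bak1, with exact Poisson 95% intervals of 29.2 to 57.2 and 22.8 to 47.0 on the scale of normalized read counts. The 3 libraries labelled Bach2-deficient held 137, 216 and 84 reads, with intervals of 170 to 239, 126 to 165 and 68.5 to 106. All 3 of these intervals lay above both WT intervals. They cover counting error only, not the spread between libraries, so they do not test the groups, and PCR copies were not told apart. With DESeq2 on 5 libraries the log2 difference was 1.91 with an adjusted p of 0.0116, just short of 0.01, and with library weights in limma it was 2.02 with an adjusted p of 0.00067. The adjusted p ran from 0.00067 to 0.507 over the alternatives. Ggnbp1, which overlaps Bak1 on the opposite strand, was at 9.08, 16.8 and 28.1 normalized read counts in WT and 23.6, 20.8 and 5.11 in the other group, so its values did not separate the groups as those of Bak1 did.

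Bax, the other effector, was measured at 763, 482 and 626 normalized read counts in WT and at 658, 742 and 419 in the libraries labelled Bach2-deficient. The 2 ranges overlapped almost entirely, and the libraries on top were WT replicate 1 and replicate 2 labelled Bach2-deficient. Its log2 difference, with a 95% confidence interval from -0.68 to 0.57, was -0.057 (limma adjusted p = 0.925) and above 0 at 0.012 with quantile normalization, at 0.10 without WT replicate 1 and at 0.19 without replicate 3 labelled Bach2-deficient. A protein-coding gene on the same strand, Gm45808, overlaps Bax, so reads shared between them cannot be told apart. Whether the differences of Bak1 and Bax themselves differ was not tested.

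**Figure D2:**
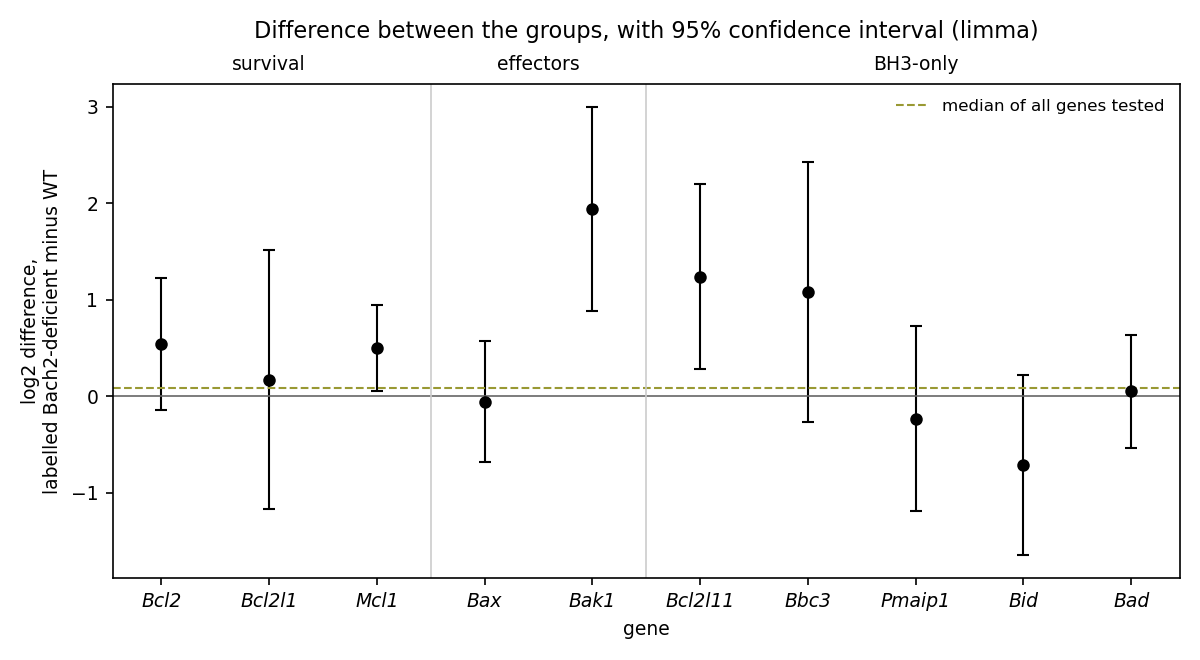
Log2 difference of each BCL2 family gene, libraries labelled Bach2-deficient minus WT, from limma on log2(normalized read count + 1) with 3 libraries a group. Points are estimates, bars 95% confidence intervals, and the dashed line is the median of all genes tested, 0.08. The intervals of Mcl1, Bak1 and Bcl2l11 lie above 0.

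Of the 5 BH3-only genes, 1 had an unadjusted p under 0.05. This gene, Bcl2l11, encodes Bim, lies at chr2:128126038-128162547 and was at 73.7, 177 and 93.6 normalized read counts in WT and at 281, 360 and 162 in the libraries labelled Bach2-deficient. Replicates 1 and 2 labelled Bach2-deficient were above every WT library, while replicate 3 was below WT replicate 2, so the groups overlapped by that pair. The means were 115 ± 54.9 (SD, n = 3) and 267 ± 99.8 (SD, n = 3), a ratio of 2.33. In limma the log2 difference was 1.24 (standard error 0.43, 95% confidence interval 0.28 to 2.20) with an adjusted p of 0.173, and all 3 libraries labelled Bach2-deficient were above the WT mean. With library weights it was 1.58 with an adjusted p of 0.0011, past the thresholds, and with DESeq2 on 5 libraries 0.95 with an adjusted p of 0.192. Over all alternatives the adjusted p ran from 0.0011 to 0.527.

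Bbc3, which encodes PUMA, a BH3-only protein induced by p53 and FOXO factors, was the least abundant of the 10. Its values were 14.1, 34.8 and 24.96 normalized read counts in WT and 41.4, 63.0 and 48.1 in the libraries labelled Bach2-deficient, at chr7:16308393-16318205. The groups did not overlap, though WT replicate 2 and replicate 1 labelled Bach2-deficient lay close to each other. These 2 libraries held 31 and 28 reads, with exact Poisson 95% intervals of 23.6 to 49.4 and 27.5 to 59.8 on the normalized scale. These intervals overlap and cover counting error only. The log2 difference of 1.08 (standard error 0.61, limma adjusted p = 0.326) was 0.74 without WT replicate 1.

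The other BH3-only genes overlapped between the groups. Pmaip1, the gene of NOXA, which binds MCL1, was at 77.7, 125 and 159 normalized read counts in WT and 109, 128 and 67.5 in the libraries labelled Bach2-deficient. Its log2 difference of -0.23 (limma adjusted p = 0.776) was -0.52 without WT replicate 1 and above 0, at 0.034, without replicate 3 labelled Bach2-deficient. Bid, whose protein links caspase-8 to mitochondria, was at 529, 197 and 197 normalized read counts in WT and 188, 125 and 197 in the other group. WT replicate 1 alone was high. The log2 difference of Bid was -0.71 (limma adjusted p = 0.345) with that library and -0.24 without it, and Bcl2l13 overlaps Bid on the opposite strand. Bad, whose protein is held by 14-3-3 proteins when phosphorylated, was at 345, 297 and 306 in WT and 275, 304 and 416 in the libraries labelled Bach2-deficient. The groups overlapped, with a log2 difference of 0.050 (95% confidence interval -0.54 to 0.64, limma adjusted p = 0.930). It was 0.11 without WT replicate 1, 0.17 without replicate 1 labelled Bach2-deficient and below 0, at -0.12, without replicate 3 labelled Bach2-deficient.

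Levels can be compared between genes only per length, here as normalized read counts per kilobase of the longest protein-coding transcript. In WT, Bax had the highest level at 567 ± 128 (SD, n = 3) per kilobase, followed by Mcl1 at 430 ± 23.6, overlapping with Bax, and, below both without overlap, Bad at 206 ± 16.7. Bid at 141 ± 87.5 and Bcl2 at 89.5 ± 28.8 followed, and neighbours from Bad down to Bbc3 overlapped in their libraries. Bak1 at 14.7 ± 2.43 and Bbc3 at 13.6 ± 5.69 per kilobase were the lowest. In the libraries labelled Bach2-deficient Mcl1 stood first at 614 ± 109 (SD, n = 3) per kilobase, overlapping with Bax at 551 ± 152, and Bad came next at 216 ± 48.7. Bcl2 followed at 131 ± 40.6, below Bad without overlap, and Bak1 came after Bid at 60.5 ± 24.4, overlapping with both Bid and the next gene, Bcl2l11. Bbc3 was again the lowest, at 28.0 ± 6.10 per kilobase.

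Ratios between 2 genes of the same library set members of the family against each other without reference to other genes. The log2 ratio of Bcl2 to Bcl2l11, a survival gene and a BH3-only gene whose products bind, was 2.74, 2.31 and 2.55 in WT and 1.95, 1.65 and 1.90 in the libraries labelled Bach2-deficient. Every WT library was above every library of the other group, at means of 2.53 ± 0.22 and 1.83 ± 0.16 (SD, n = 3). The ratio of Bax to Bak1, chosen after the values were seen, was 4.61, 3.51 and 4.19 in WT and 1.69, 2.35 and 2.27 in the libraries labelled Bach2-deficient, again without overlap. The ratios of Bcl2 to Bax, Mcl1 to Pmaip1, Bcl2l1 to Bad and Bcl2 to Mcl1 overlapped between the groups. Their mean differences were 0.60, 0.73, 0.12 and 0.040. The WT values of these ratios had SDs of 0.76, 0.50, 1.23 and 0.36 (n = 3), so single WT libraries move the differences. No ratio was tested.

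**Figure D3:**
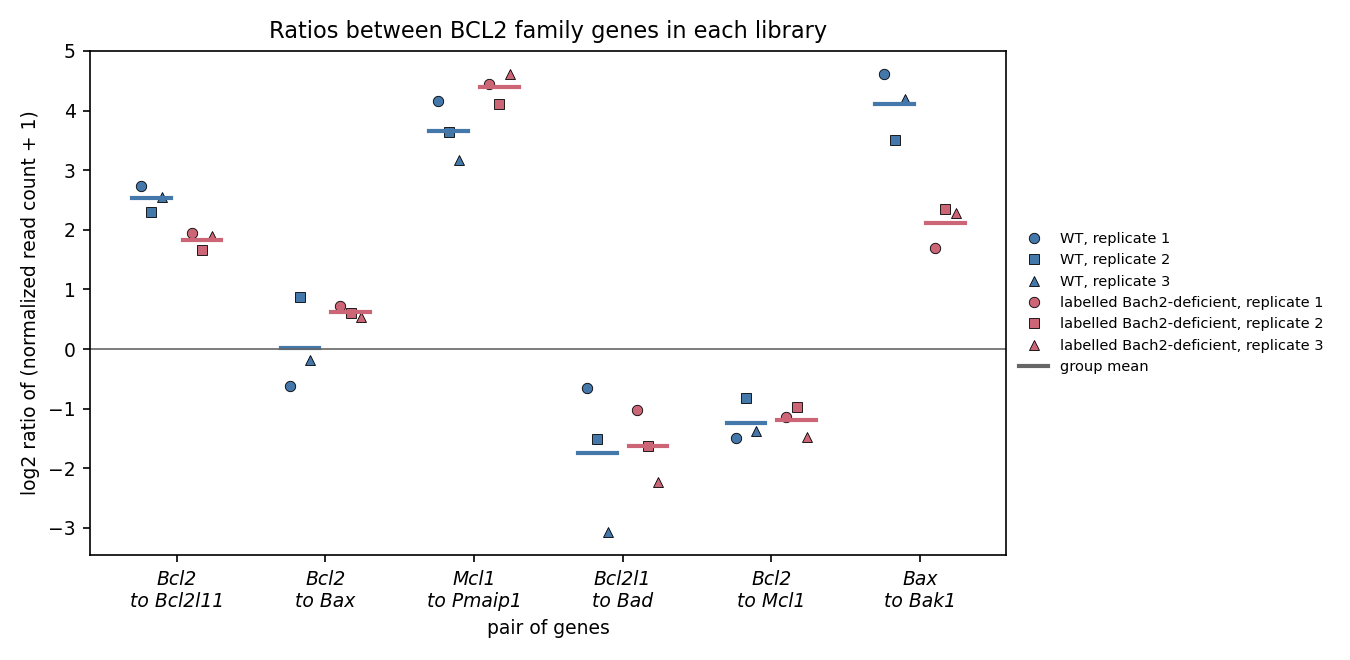
Log2 ratio of one BCL2 family gene to another in each library, from normalized read counts + 1, with WT in blue, libraries labelled Bach2-deficient in red and a line at each group mean. Groups are apart for Bcl2 to Bcl2l11 and Bax to Bak1, lower in the libraries labelled Bach2-deficient, and overlap for the other 4 pairs.

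The values of the 2 groups also differed with transcript length over the whole table. Length and log2 difference had a Spearman's rho of 0.339 over 11264 genes, where genes are not independent replicates. In 5 groups of genes of rising length the median log2 differences were -0.21, -0.21, 0.094, 0.30 and 0.47. Bcl2, with a transcript of 7191 bases, lay at 0.54, near the median of the longest group, and Bcl2l11, with 5036 bases, lay at 1.24, above it. Bak1, with 2387 bases, and Bbc3, with 1814, lay at 1.94 and 1.08 in a length group whose median was -0.21. After removal of a length and GC trend from each library, the log2 differences were 1.84 for Bak1, 0.99 for Bcl2l11, 0.97 for Bbc3 and 0.52 for Mcl1, and that of Pmaip1 turned to 0.077. This setting was chosen after the values were seen.

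**Figure D4:**
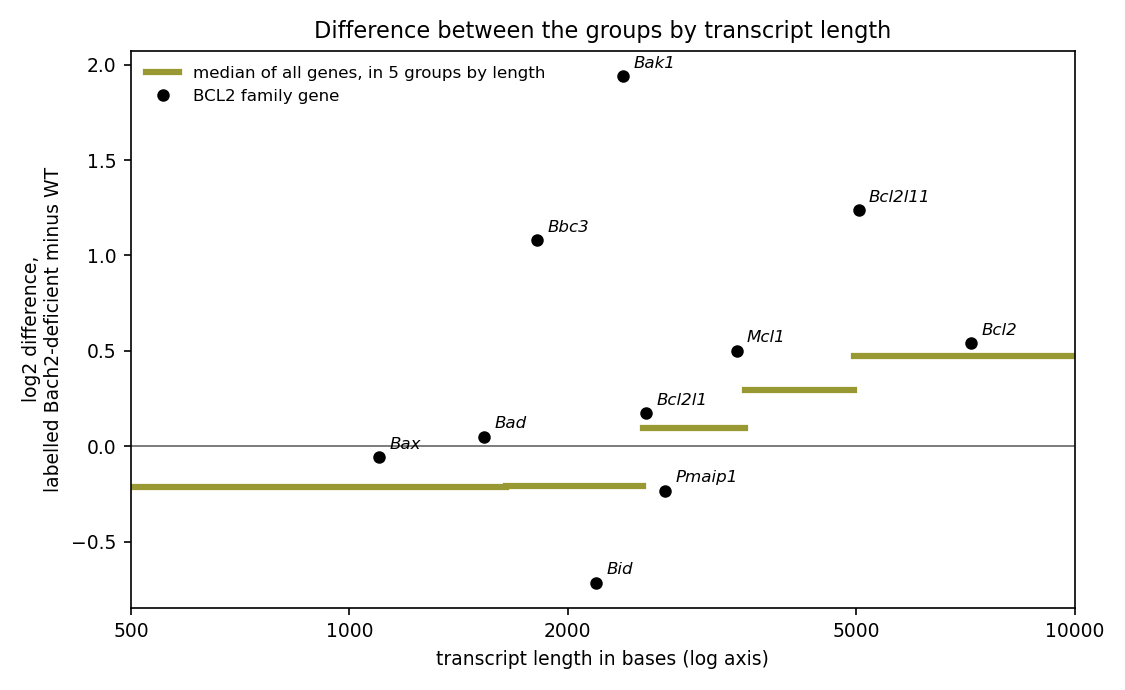
Log2 difference between the groups, libraries labelled Bach2-deficient minus WT, against transcript length in bases (log axis) for the BCL2 family genes (points). Lines are the medians of all genes in 5 groups by length, of which the shortest and longest run beyond the axis. Bak1, Bbc3 and Bcl2l11 lie farthest above the medians of their groups, and Bid farthest below.

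The promoters of the 4 genes that had an unadjusted p under 0.05 or groups without overlap are shown. Windows of 300 bases, from 250 before to 50 after a start site, came from RefSeq (GRCm38.p6). Pmaip1 was left out of this search, and the other 9 of the 10 genes had 15 windows. Both strands were searched for TGANTCA, the core shared by AP-1 sites and the MARE sites that Bach factors bind with small Maf proteins, and for TGTTTAC, a FOXO motif. Of 32851 windows of all genes, 7.81% held TGANTCA and 3.65% held TGTTTAC. The AP-1 and MARE core was in 0 of the 15 windows, and the FOXO motif was in 2, of Bcl2l11 and of Bbc3. Capitals mark the match, which reads as the reverse complement in Bcl2l11, and the windows of Mcl1 and Bak1 hold neither motif. Nor do the other window of Bcl2l11 and the other 2 of Bbc3, which are not shown.
Mcl1 promoter, chr3:95658471-95658770, plus strand: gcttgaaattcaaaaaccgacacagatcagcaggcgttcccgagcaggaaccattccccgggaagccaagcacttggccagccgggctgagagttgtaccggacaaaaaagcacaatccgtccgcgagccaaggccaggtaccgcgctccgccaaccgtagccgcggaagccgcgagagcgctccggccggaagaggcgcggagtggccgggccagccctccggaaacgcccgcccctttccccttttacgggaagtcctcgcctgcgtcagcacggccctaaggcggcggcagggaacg
Bak1 promoter, chr17:27028578-27028877, minus strand: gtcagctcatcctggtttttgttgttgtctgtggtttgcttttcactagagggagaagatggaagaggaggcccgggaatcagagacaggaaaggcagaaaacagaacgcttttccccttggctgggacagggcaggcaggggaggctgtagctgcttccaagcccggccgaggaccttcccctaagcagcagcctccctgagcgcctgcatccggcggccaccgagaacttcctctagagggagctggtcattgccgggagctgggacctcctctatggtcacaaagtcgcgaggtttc
Bcl2l11 promoter, chr2:128125788-128126087, plus strand: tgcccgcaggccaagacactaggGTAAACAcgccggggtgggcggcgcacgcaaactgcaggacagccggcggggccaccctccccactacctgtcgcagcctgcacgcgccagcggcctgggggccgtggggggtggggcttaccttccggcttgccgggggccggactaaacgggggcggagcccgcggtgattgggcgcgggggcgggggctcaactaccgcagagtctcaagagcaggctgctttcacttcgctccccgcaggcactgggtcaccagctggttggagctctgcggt
Bbc3 promoter, chr7:16310011-16310310, plus strand: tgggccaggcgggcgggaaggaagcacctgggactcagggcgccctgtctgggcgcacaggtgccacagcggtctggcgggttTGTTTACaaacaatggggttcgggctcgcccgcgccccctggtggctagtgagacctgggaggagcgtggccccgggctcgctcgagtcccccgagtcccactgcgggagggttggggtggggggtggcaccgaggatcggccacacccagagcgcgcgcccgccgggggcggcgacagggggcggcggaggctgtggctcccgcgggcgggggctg
A match describes the letters of a window and not a bound site, and a window without a match says only that these letters are absent from it. The 15 windows held 49.3% to 78% G and C, with 13 of them above the median of all windows, 52.7%. They held 1 to 44 CpG dinucleotides, and 14 had more than the median of 7.

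Genes with the pattern most like that of Bak1 across the 6 libraries were Ccdc88b, Rtf1, Tab2, Ccni and Eif3f, with Pearson's r of log2 values from 0.997 to 0.999. Ccdc88b, for example, was at 107, 136 and 111 normalized read counts in WT and 510, 416 and 266 in the libraries labelled Bach2-deficient. Like Bak1, it was highest in replicate 1 and lowest in replicate 3 of that group. The pattern of Bak1 was not rare, since 236 of 11295 genes had an r above 0.95 with it, and these 6 libraries share the difference between the groups.

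Further BCL2 relatives were examined as a list, of which 12 of 16 genes were tested. None was higher and 3 were lower at an unadjusted p under 0.05, where 10.1% of all tested genes were higher and 10.2% lower, and the median log2 difference was 0.032. Bnip3l, the gene of the mitophagy receptor NIX, was at 2241, 1937 and 2453 normalized read counts in WT and 1207, 1542 and 1689 in the libraries labelled Bach2-deficient, with a log2 difference of -0.59 (limma adjusted p = 0.172). Its relative Bnip3 was at 208, 109 and 121 in WT and 26.6, 102 and 61.4 in the other group, a log2 difference of -1.33 that was -0.81 without replicate 1 labelled Bach2-deficient, -0.81 after removal of the length and GC trend and -0.51 with library weights. Bcl2a1d, of the survival gene A1, was at 1805, 2342 and 2860 in WT and 1748, 1301 and 1699, each of these 3 genes without overlap between the groups. The A1 copies Bcl2a1a, Bcl2a1b and Bcl2a1d are nearly identical in sequence, so the share of reads given to each is uncertain, and Bcl2a1a and Bcl2a1b had log2 differences of 0.31 and -0.027 with overlap, which were -0.031 and -0.21 without WT replicate 1. The log2 difference of Bcl2a1d, -0.55, turned to 0.058 with the length and GC trend removed. Bmf, a BH3-only gene, was at 0, 14.6 and 16.6 in WT and 54.7, 79.1 and 13.3, where replicate 3 labelled Bach2-deficient lay below 2 WT libraries, and its log2 difference of 2.62 was 1.27 without WT replicate 1. The remaining relatives Bcl2l2, Bcl2l12, Bcl2l13, Bcl2l14, Bcl2l15 and Bik overlapped between the groups, with log2 differences from -0.90 for Bik to 0.91 for Bcl2l13. Without WT replicate 1 these were -0.25 for Bik and -0.19 for Bcl2l13, and Bcl2l2 went from 0.34 to 0.13, Bcl2l12 from -0.0078 to -0.18, Bcl2l14 from 0.072 to 0.27 and Bcl2l15 from 0.81 to -1.31. The means of Bcl2l15, 53.8 in WT and 33.9 in the other group, also ran against its log2 difference in all 6 libraries. Bcl2a1c and Bok did not reach the minimum value in 3 libraries, and Bcl2l10 and Hrk were not analysed here.

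Downstream of the family lie the apoptosome, the caspases and their inhibitors. Of 18 such genes 2 were higher, Xiap and Birc6, and 2 lower, Casp6 and Diablo, at an unadjusted p under 0.05, near the 10.1% and 10.2% of all tested genes, with a median log2 difference of 0.058. Diablo, whose protein SMAC leaves mitochondria with cytochrome c and blocks XIAP, was at 1042, 980 and 1039 normalized read counts in WT and 445, 553 and 710 in the libraries labelled Bach2-deficient. Its log2 difference was -0.87 (limma adjusted p = 0.141). Birc6, a large inhibitor of apoptosis protein, was at 834, 1173 and 1030 in WT and 1729, 1723 and 1456, a log2 difference of 0.70 (limma adjusted p = 0.149). Both genes separated the groups without overlap, in opposite directions, as did Casp6 at -0.74, while Xiap at 0.68 overlapped and was 0.33 without WT replicate 1. With the length and GC trend removed, the log2 differences were -0.57 for Diablo, 0.41 for Birc6 and -0.26 for Casp6. Cycs, the gene of cytochrome c and the most abundant of the list, had a log2 difference of -0.44 (limma adjusted p = 0.246), which was -0.19 with that trend removed.

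In the death receptor list, 2 of 10 genes were higher, Fadd and Cflar, and 1 was lower, Casp8, at an unadjusted p under 0.05, against 10.1% and 10.2% of all tested genes, with a median of 0.23. Cflar, which encodes the caspase-8 inhibitor cFLIP, was at 403, 885 and 742 normalized read counts in WT and 1478, 1323 and 1043 in the libraries labelled Bach2-deficient. Casp8 itself was at 1924, 1876 and 1957 in WT and 1066, 1282 and 1771. The groups did not overlap for either, with log2 differences of 0.98 and -0.51 (limma adjusted p of 0.152 and 0.227). Cflar was at 0.65 without WT replicate 1, and Casp8 at -0.26 after removal of the length and GC trend. Fadd, the adaptor between receptor and caspase-8, had a log2 difference of 1.97 (limma adjusted p = 0.203), from 7.07 normalized read counts in WT replicate 1 to 157 in replicate 1 labelled Bach2-deficient. Without WT replicate 1 it was 0.99, and with DESeq2 on the other 5 libraries 0.95.

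Among 12 genes of the p53 pathway, which induces Bbc3 and Pmaip1, none was higher and 2 were lower at an unadjusted p under 0.05, Trp53 and Perp, against 10.1% and 10.2% of all tested genes, with a median of -0.0010. Trp53 was at 1943, 1227 and 1405 normalized read counts in WT and 715, 861 and 1163 in the libraries labelled Bach2-deficient, without overlap (log2 difference -0.74, limma adjusted p = 0.169). Perp was low in both groups, at 67.6, 21.3 and 18.7 in WT and 0, 2.68 and 12.3 in the other group. Ccng1 had the largest mean read count over the 6 libraries, though per kilobase of transcript Trp53 was above it in both groups. The log2 difference of Ccng1 was 0.059. It was 0.14 without WT replicate 1 and turned to -0.060 without WT replicate 3.

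Of 9 genes for the turnover and partners of the family, 1 was higher, Fbxw7, and 3 were lower, Ywhaz, Ywhae and Vdac3, at an unadjusted p under 0.05, against 10.1% and 10.2% of all tested genes, with a median of -0.42. Fbxw7, a ubiquitin ligase subunit that targets MCL1, was at 26.2, 150 and 82.1 normalized read counts in WT and 304, 262 and 200.5 in the libraries labelled Bach2-deficient (log2 difference 1.85, limma adjusted p = 0.152), and its log2 difference was 1.17 without WT replicate 1, the lowest library. The 14-3-3 genes Ywhaz and Ywhae, whose proteins hold phosphorylated BAD, had log2 differences of -0.51 and -0.66 (limma adjusted p of 0.200 and 0.147). Vdac3, a channel of the outer mitochondrial membrane, stood at -0.77 (limma adjusted p = 0.147). With the length and GC trend removed, Vdac3 was at -0.27 and Ywhae at -0.26.

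The survival signal list holds receptors, kinases and transcription factors that act on the survival genes. Of its 16 genes 3 were higher, Stat5b, Foxo3 and Pim1, and 3 lower, Il2rg, Cd28 and Icos, at an unadjusted p under 0.05, against 10.1% and 10.2% of all tested genes, with a median of 0.16. Pim1, a kinase induced by STAT5 that phosphorylates BAD, was at 93.9, 133 and 123 normalized read counts in WT and 381, 521 and 180 in the libraries labelled Bach2-deficient. Il2rg, the common gamma chain of cytokine receptors that maintain Bcl2 and Mcl1, was at 4171, 3772 and 4360 in WT and 1729, 2212 and 2855. Both genes separated the groups, with log2 differences of 1.51 and -0.88 (limma adjusted p of 0.142 and 0.141), and so did Stat5b at 0.74 and Icos at -1.03. With the length and GC trend removed, Il2rg was at -0.51 and Stat5b at 0.29, and with library weights Icos was at -1.58.

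**Figure D5:**
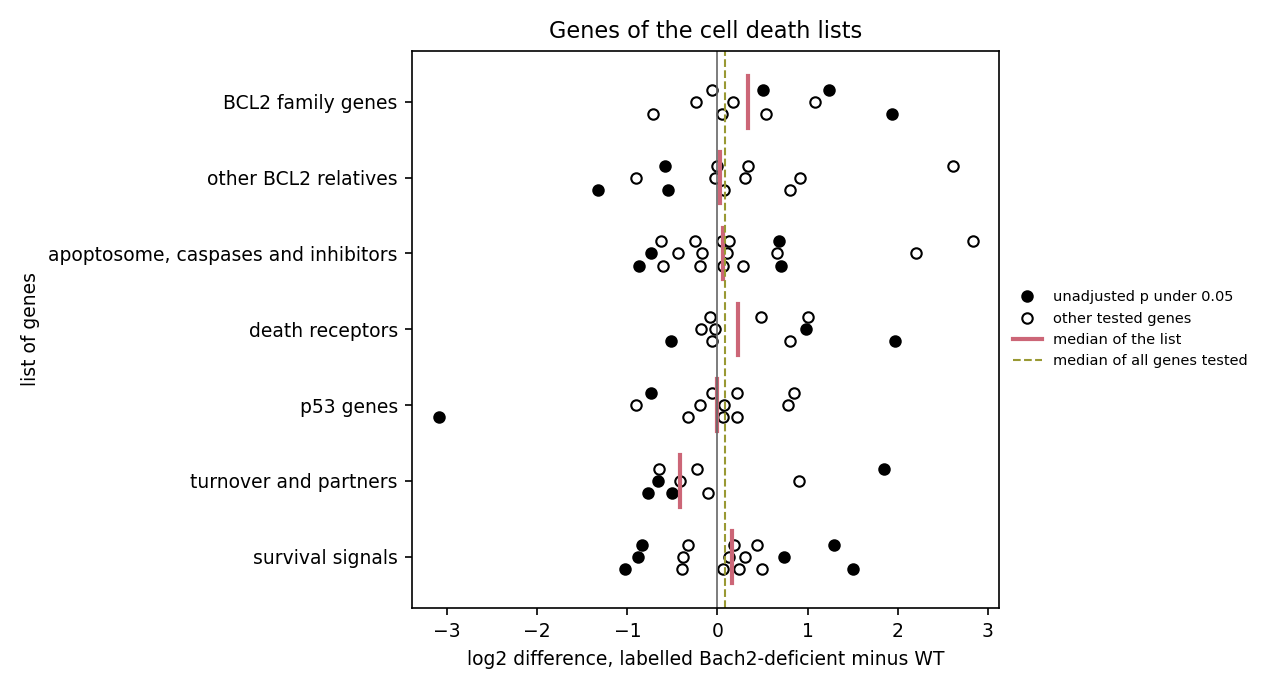
Log2 difference, libraries labelled Bach2-deficient minus WT, of each tested gene in the BCL2 family and in 6 lists of related genes. Filled points have an unadjusted p under 0.05, red bars mark the median of each list, and the dashed line is the median of all genes tested, 0.08. Each list other than the BCL2 family, the further relatives and the p53 genes holds filled points on both sides of 0.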

How the data were processed

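The deposited values are a signal for each gene and library, normalized read counts that the authors made by dividing read counts by a size factor of each library. The study's methods name Tophat2 and HTSeq, while the submitters' processing notes name STAR 2.5.2b, DESeq and DESeq2 1.20.0 under R 3.5.1 with GRCm38, so the aligner is not settled. Values were whole multiples of 1 step (tolerance 0.01) for 100% of genes in each library, which gave whole reads in 5 libraries. WT replicate 1 was left out of the count tests, since its step of 1.01 lies within 0.005 of a power of 10 on the log10 scale, as no other step did.

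Differences were tested on log2(normalized read count + 1) with limma 3.58.1 (R 4.3.3), using a variance trend and the Benjamini-Hochberg correction over 11296 genes. This scale understates differences of low genes. DESeq2 1.42.0 and edgeR 4.0.16 were run on the recovered reads of 2 WT and 3 other libraries. Permutation tests were exact and 2-sided. Lengths and GC content came from GENCODE M21, matching 14329 genes by symbol and 363 by an older one, and promoters from RefSeq.

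The BCL2 family genes and all lists were chosen with earlier results of these data known. From each related list, every tested BCL2 relative was named, and otherwise up to 4 genes with the smallest unadjusted p under 0.05 and the gene with the largest mean. The 5 genes most like the member with the smallest p were taken by Pearson's r. Other pseudocounts, filters, normalizations, variance models, tests, library weights, a replicate block and fits without each single library were tried as alternatives. The procedures were tested on simulated data.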

Additional observations from a re-analysis of the deposited data

How the results depend on the processing

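Fits that left out a library are given as ranges. None of the 10 BCL2 family genes passed the study's thresholds in any fit but that with library weights, which called 2, Bak1 at a log2 difference of 2.02 and Bcl2l11 at 1.58, and gave 7 at an unadjusted p under 0.05, against 3 with equal weights. Fits without a library gave 1 to 4 such genes. Over all genes, library weights called 561 higher and 567 lower with 5328 at an unadjusted p under 0.05, DESeq2 on 5 libraries called 33 and 57, and the fits without a library gave 1074 to 3070 at an unadjusted p under 0.05 and 0 to 0 called in either direction. The cause was not tested.

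Bcl2, Mcl1, Bak1, Bcl2l11, Bbc3 and Bid kept their direction in each fit that could give a value; with a mean of at least 50 required, Bbc3 had none. Leaving out single libraries gave 0.38 to 0.83 for Bcl2, 0.40 to 0.65 for Mcl1, 1.66 to 2.27 for Bak1, 0.97 to 1.60 for Bcl2l11, 0.74 to 1.37 for Bbc3 and -0.95 to -0.24 for Bid. The sign turned for Bax with quantile normalization (0.012), library weights (0.26), edgeR (0.12) and DESeq2 (0.098), and for Pmaip1 with the length and GC trend removed (0.077). It also turned when single libraries were left out, where Bcl2l1 ran from -0.51 to 0.78, Bax from -0.23 to 0.19, Pmaip1 from -0.52 to 0.034 and Bad from -0.12 to 0.17.

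Among related genes the sign turned for Bcl2a1a (-0.038 in edgeR, -0.056 in DESeq2), Bcl2l13 (-0.19, -0.22) and Bcl2l15 (-1.23, -1.26, and -0.51 under library weights and -0.21 after quantile normalization). It turned for Bcl2l14 with quantile normalization (-0.10), Bik under library weights (0.21), and, after removal of the length and GC trend, Bcl2a1b (0.60), Bcl2a1d (0.058) and Bcl2l12 (0.13). With single libraries left out, ranges that crossed 0 were -0.031 to 0.79 for Bcl2a1a, -0.23 to 0.34 for Bcl2a1b, -0.18 to 0.21 for Bcl2l12, -0.19 to 1.48 for Bcl2l13, -0.22 to 0.46 for Bcl2l14, -1.31 to 1.93 for Bcl2l15 and -0.060 to 0.14 for Ccng1. The cause was not tested.

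Libraries share replicate numbers, and the labels do not say whether equal numbers mark a pair or a shared batch. The deviations of equal numbers from their group means had correlations of -0.069, 0.12 and -0.039. These cannot settle it, since WT replicate 1 set much of the WT deviations, at -0.82 and -0.78 with WT replicates 2 and 3. With the replicate block, 0 genes were called in either direction, and 3 of the 10 BCL2 family genes had an unadjusted p under 0.05. The log2 difference of Bak1 was 1.94 (limma adjusted p = 0.219), so no call at the study's thresholds changed. Among the related genes, the unadjusted limma p with this block was 0.061 for Xiap and 0.060 for Bnip3, no longer under 0.05.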

Other observations

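Marker lists of other cells and states are given as values beside the BCL2 family, and their part in it was not tested. Of all tested genes, 10.1% were higher and 10.2% lower at an unadjusted p under 0.05. Of 5 Treg genes, 2 were lower in the libraries labelled Bach2-deficient at an unadjusted p under 0.05, Foxp3 and Tnfrsf18, and none was higher, with summed levels of 6415, 6887 and 8672 normalized read counts in WT and 6951, 5858 and 5249. Of 5 naive T cell genes 1 was lower, Ccr7. None of 5 CD8 or NK cell genes had an unadjusted p under 0.05, and WT replicate 1 was at 0 for Ncr1 and Klrd1. Among 7 immediate early genes 1 was higher, Egr1, at 131, 325 and 395 normalized read counts in WT and 808, 729 and 640.3 in the other group. The proliferation list, with 1 of 8 genes higher, Mcm5, and 1 lower, Ccnb1, summed to 18164 in WT replicate 1, against 9088 to 13870 in the other libraries. That library also held the highest values of Bax, Bid and Bcl2l1 and the lowest of Bcl2, Mcl1, Bak1, Bcl2l11 and Bbc3.

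Several further genes of cell death were low or at 0 in WT replicate 1 but not in the other WT libraries. Casp9, the initiator caspase of the apoptosome, was at 1.01, 44.9 and 38.5 normalized read counts in WT and 59.1, 101 and 57.3 in the libraries labelled Bach2-deficient. Dffb, the nuclease that cleaves DNA in apoptosis, was at 0, 92.0 and 56.2 in WT and 161, 107 and 109 in the other group. Fasl, the death ligand, was at 1.01, 168 and 124 in WT and 31.0, 91.8 and 75.7. These genes were chosen after their values were seen, and Casp9 and Dffb were without overlap between the groups.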
